A study of Mus musculus with 4 samples.

Results

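The nuclear genes of the mitochondrial respiratory chain were examined in a peak list of H3K27ac, an acetylated lysine of histone H3 that marks active promoters and enhancers, from mouse Th17 cells. The members were all protein-coding genes whose symbol begins with Ndufa, Ndufb, Ndufc, Ndufs, Ndufv, Uqcr, Uqcc, Cox4 to Cox8 or Atp5, or is Sdha, Sdhb, Sdhc or Sdhd. They numbered 99 among 21631 protein-coding genes that the GRCm38 RefSeq annotation places on chromosomes 1 to 19 or X. By these names 88 encode subunits or their close relatives, and 11 (Ndufaf and Uqcc genes) encode assembly factors, which help build a complex without being part of it.

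ChIP-seq was done on cultured C57BL/6 Th17 cells, the CD4+ helper T cells that secrete IL-17. The groups were 2 H3K27ac libraries and 2 input DNA libraries, 1 of each per biological replicate. In all 4, naive CD4+ T cells had been cultured with anti-CD3ε (0.25 μg/mL), anti-CD28 (1 μg/mL), TGF-β (0.1 ng/mL) and IL-6 (20 ng/mL), for 72 h. The TGF-β dose is that of the treatment label, and the growth label gives a range that begins there. The labels give no genotype, and the peak names carry the letters WT_Ddx5, which the labels do not explain. A single list of 56285 peak positions was available, with no height and no value per library, so no value here has a replicate error and read depth is unknown. No difference between genes was tested, since genes of 1 list are not replicates. The label fitted the start peaks: all 4 Th17 markers (Il17a and Il17f among them) and all 7 T cell markers with an annotated gene had a peak at the gene start. Of 18 markers of muscle, sperm, B cells and myeloid cells, 0 did. Within the gene or 5000 bp on each side, 2 of 8 muscle and 0 of 4 sperm markers had a peak. So did 2 of 3 B cell and 1 of 3 myeloid markers.

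The respiratory chain of the inner mitochondrial membrane passes electrons from NADH (complex I) and succinate (complex II) through complex III to complex IV, cytochrome c oxidase, which reduces oxygen. The protons pumped on the way drive complex V, the ATP synthase. Most subunits are encoded in the nucleus, and these genes are active in nearly all cells. A few complex IV subunits also exist as isoforms made mainly in heart and skeletal muscle, lung or testis. In T cells, activation is known to go along with growth of the mitochondrial mass.

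Nearly all members had a peak in or near the gene, and those without one were mostly isoforms of other tissues. Of the 99 genes, 92 (92.9%) had a peak in the gene or in the 5000 bp on each side, against 63.8% of all protein-coding genes. A peak lay within 1000 bp of the gene start at 90 members (90.9%), against 54.2% of all protein-coding genes. The start is the annotated transcription start where the reference gives a strand, which it does for 81 members, and otherwise either end of the gene. The members without a start peak included the isoform genes Cox4i2, Cox6a2, Cox7b2, Cox8b, Cox8c and Ndufa4l2 and the gene copies Ndufb4b and Ndufb4c. With the 8 tissue-restricted isoforms (these 6, Cox6b2 and Cox7a1) and the copies Ndufb4b and Ndufb4c set aside, a split made after the values were seen, 88 of 89 genes had a start peak.

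Other sets of generally active genes were much alike in this respect. A start peak was found at 77 of 78 mitochondrial ribosomal protein genes (98.7%), 48 of 51 proteasome subunit genes (94.1%) and 90 of 101 cytosolic ribosomal protein genes (89.1%). A high share of acetylated starts was therefore not seen in the respiratory chain genes alone.

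**Figure D1:**
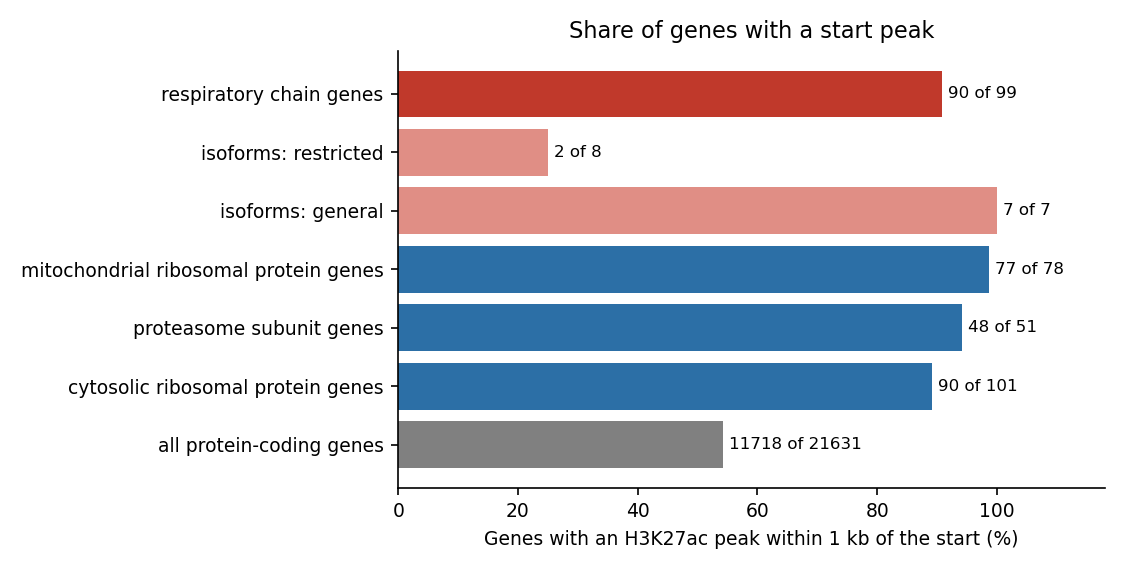
Share of genes (horizontal axis, percent) with an H3K27ac peak within 1 kb of the start, for the respiratory chain genes, their tissue-restricted and general isoforms, 3 other gene sets and all protein-coding genes, with the counts beside the bars. The restricted isoforms (2 of 8) lie below all protein-coding genes (11718 of 21631), and the other sets lie above.

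The acetylation of the members was centred on the start. The acetylated length, counted as all peak bases of the window, was 2276 bp in the median member (quartiles 1612 and 3478 bp), against 1374 bp in the median protein-coding gene (quartiles 0 and 3390 bp). In 42 of the 99 members the window held 1 peak, in 23 it held 2 and in 27 it held 3 or more, up to 8. Over all 21631 protein-coding genes, 13808 had a peak in the window and 4320 had exactly 1. Exactly 1 was held by 30 of 78 mitochondrial ribosomal protein, 17 of 51 proteasome and 15 of 101 cytosolic ribosomal protein genes. The members' widest start peak had a median width of 1794.5 bp (quartiles 1482.25 and 2453 bp), against 1808 bp (quartiles 1182 and 2650.5 bp) over all genes with one. The medians thus lay close together and the members' spread was the smaller: 80 of the 90 peaks were 1000 to 3000 bp wide. Such a spread was not particular to the members. The quartiles were 1417 and 2076 bp in mitochondrial ribosomal protein genes and 1610.5 and 2306 bp in proteasome genes. In cytosolic ribosomal protein genes they were 2263.5 and 3556.5 bp. Peaks over 3000 bp made up 8.89% of the members' start peaks and 19.1% of those of all genes, and peaks under 1000 bp made up 2.22% and 18.9%. For scale, the 7 T cell markers had a median start peak of 10251 bp.

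The peaks reached further into the gene than away from it. Of 78 members with a strand and a start peak, 75 had the start inside the widest peak. In these the peak reached a median of 1082 bp downstream and 761 bp upstream of the start, and 49 of 75 reached further downstream. Coverage was highest from 50 to 450 bp downstream of the start, where 95.1% of the 81 members with a strand had a peak. It was 64.2% at 1000 bp downstream and 30.9% at 1000 bp upstream. All protein-coding genes with a strand had 30.1% at 1000 bp downstream and 18.1% at 1000 bp upstream. At 3000 bp the members had 4.94% downstream, against 6.86% of all genes, and 8.64% upstream, against 5.05% of all genes. At 1000 bp downstream the mitochondrial ribosomal protein genes had 40.6% and the proteasome genes 55.8%, both below the members, a difference that was not tested. At 1000 bp upstream these sets had 29% and 20.9%. Higher coverage downstream than upstream at this distance was therefore not particular to the members. The reach of the peaks was not measured over all genes.

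**Figure D2:**
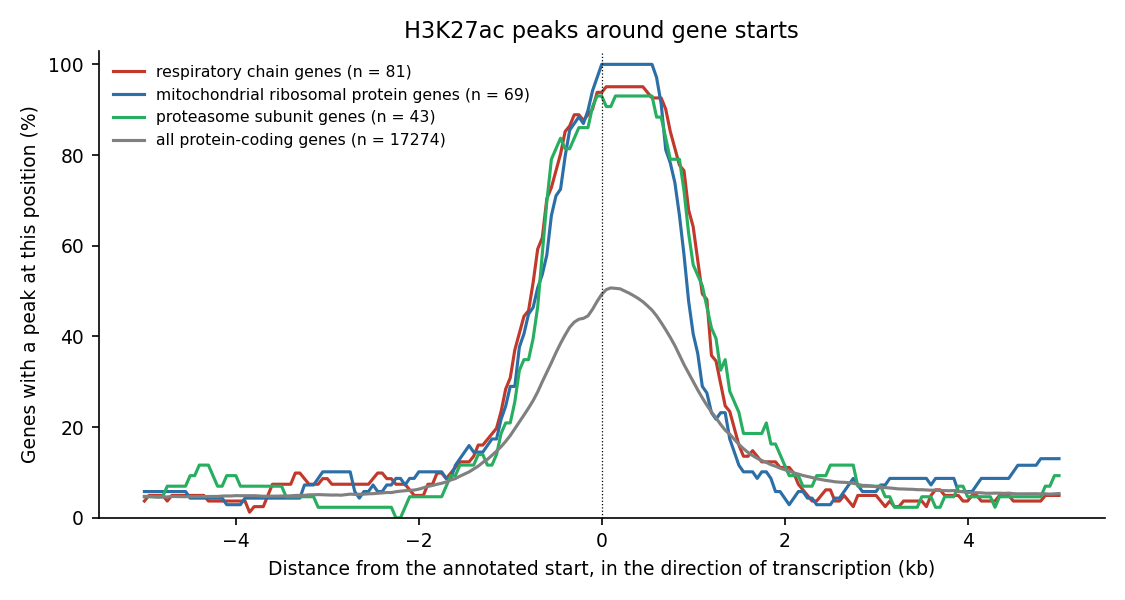
Percent of genes with an H3K27ac peak (vertical axis) at each distance from the annotated start (horizontal axis, kb, in the direction of transcription), for genes with a strand. The respiratory chain curve peaks at 95.1% and follows those of the mitochondrial ribosomal protein and proteasome genes, while all protein-coding genes reach 50.7%.

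Complex I (NADH dehydrogenase), the largest complex, had 41 genes with a median acetylated length of 2258 bp, and 37 of them had a start peak. The 7 nuclear-encoded core subunits, which include all those with a flavin or an iron-sulfur cluster, had a median of 3555 bp. Among them the flavin-binding subunit gene Ndufv1 was lowest with 1720 bp and Ndufv2 highest with 5508 bp. Ndufs1 had 3555 bp in 1 peak that also came within 1000 bp of the start of the translation factor gene Eef1b2. Genes are grouped by symbol, so Ndufa4, now known as a complex IV subunit, is counted here. The 31 other subunit genes apart from Ndufa4l2, Ndufb4b and Ndufb4c all had a start peak, with a median acetylated length of 2206 bp. The longest was Ndufab1, which encodes the mitochondrial acyl carrier protein, with 7288 bp in 7 peaks, 5362 bp of it inside the gene. Ndufb1, a small membrane-arm subunit gene, followed with 6673 bp. The shortest was Ndufc1, with 1 peak of 888 bp, which was also the narrowest start peak of any member after Cox6b2.

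Complex II (succinate dehydrogenase, also an enzyme of the citric acid cycle) is encoded by 4 nuclear genes, and all 4 had a start peak. Sdha, the flavoprotein gene, had 2557 acetylated bp with a start peak of 1725 bp, and Sdhb, the iron-sulfur subunit gene, had 2980 bp with a start peak of 1751 bp. The membrane anchor genes Sdhc and Sdhd had 1672 and 2839 bp, with start peaks of 1672 and 2165 bp. The start peaks of these 4 genes therefore differed by less than 500 bp in width.

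Complex III (cytochrome bc1) had a start peak at all 8 genes and a median acetylated length of 3107.5 bp. The core genes differed: Uqcrc1 had 1007 bp in 1 peak, the third narrowest start peak of all members, and Uqcrc2 had 3613 bp in 2 peaks, the wider of 3191 bp at the start. Uqcrfs1, which encodes the Rieske iron-sulfur protein, had 3484 bp. Uqcrh, the hinge protein gene, had a start peak of 3601 bp that reached 2518 bp upstream, over the start of its divergent neighbour Lrrc41.

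Complex V (ATP synthase) had a start peak at all 17 genes, with a median width of 2502 bp. The median width was 2342 bp in complex III, 1688 bp in complex I, 1738 bp in complex II and 1708 bp in complex IV without its restricted isoforms. Complex III had the longer median acetylated length, 3107.5 bp, and complex V had 2802 bp. These medians were not tested against each other. Among subunits of the catalytic head, Atp5a1 (alpha) had 2802 bp, Atp5b (beta) 8605 bp, Atp5c1 (gamma) 4175 bp, Atp5d (delta) 13404 bp and Atp5e (epsilon) 3502 bp. Atp5d and Atp5b were the longest of all members, but much of this lay outside the genes, with 5879 bp inside Atp5d and 2562 bp inside Atp5b. The start peak of Atp5d, 7059 bp wide, was the widest of all members. It reached 5951 bp upstream of the listed start (chr10:80142275) and came within 1000 bp of the start of Cbarp. The annotated gene begins before that listed start, at chr10:80138698, so part of this reach lies inside the gene. The 3 genes for the c subunit, Atp5g1, Atp5g2 and Atp5g3, which encode the same mature protein, had 1986, 2874 and 2568 bp, and each had a start peak. Atp5h, a subunit of the stator stalk, had 5696 bp. The narrowest start peak of complex V was the 1259 bp of Atp5mpl.

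The assembly factors all had a start peak, with a median width of 1683 bp. Ndufaf3, a complex I assembly factor gene, stood out with 6815 acetylated bp and a start peak of 4761 bp shared with Dalrd3. Uqcc2, of complex III assembly, had the fourth narrowest widest start peak, 1016 bp.

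**Figure D3:**
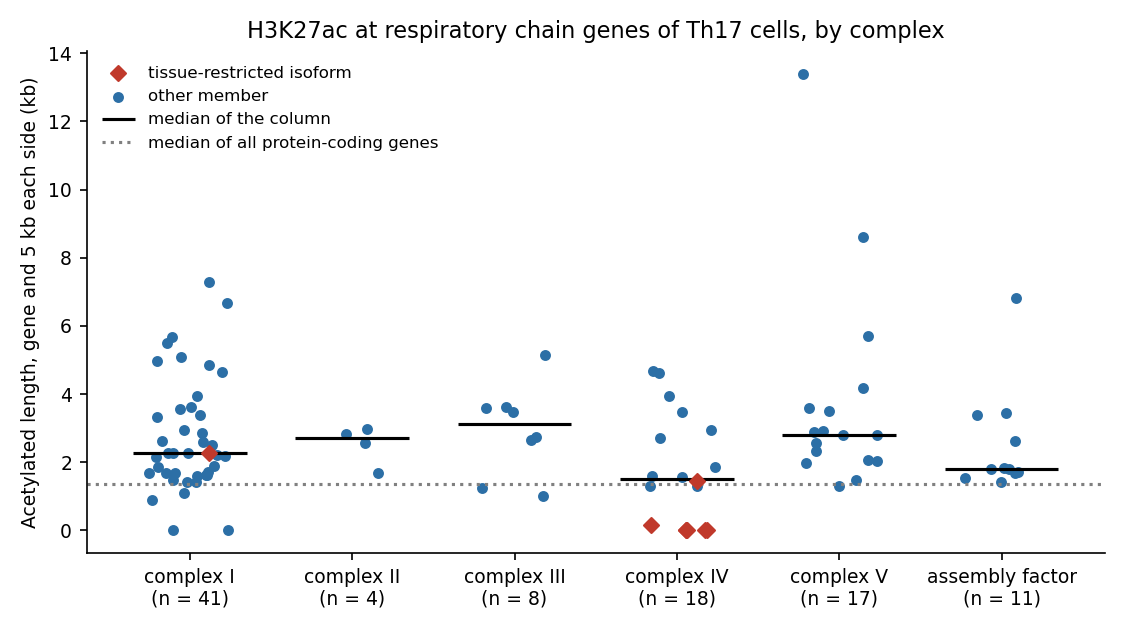
Acetylated length (vertical axis, kb) in the gene and 5 kb on each side for each of the 99 members by complex, with column medians (black) and the median of all protein-coding genes (dotted). Of the 18 complex IV genes, 5 tissue-restricted isoforms lie on top of each other at 0, and Atp5d is highest at 13404 bp.

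Complex IV held most of the genes without acetylation, 5 of the 7 members with no peak in the window. Of its 18 genes 13 had a start peak, and all 11 genes outside the restricted class did. The general subunit genes with no isoform pair here had 4609 bp (Cox5a), 1558 bp (Cox5b), 1308 bp (Cox6c) and 1308 bp (Cox7c). Cox7a2l, a relative of Cox7a2 known for its part in joining complexes into supercomplexes, had 2934 bp in 1 peak.

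The tissue-restricted isoforms differed from the general ones gene by gene. Of 8 restricted genes 2 had a start peak, and of 7 general partners 7 did. The median acetylated length was 0 bp in the restricted and 2700 bp in the general genes. The ranges overlapped, from 0 to 2276 bp in the restricted and 1586 to 4666 bp in the general genes. The overlap came from Ndufa4l2 alone, since the next longest restricted gene, Cox7a1, had 1455 bp. The classes come from textbook knowledge of where each isoform is made, except for Ndufa4l2, which is known as a gene induced in low oxygen. Without Ndufa4l2 and Ndufa4, 2 of 7 restricted and 6 of 6 general genes had a start peak. No test was run on the classes.

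For the isoforms of heart and skeletal muscle, the pairs were not alike. Cox6a2 had no peak in its window, and its nearest peak lay 30259 bp away, while Cox6a1 had 3946 bp and a start peak of 1867 bp. Of the 3946 bp, 1279 bp lay inside Cox6a1. Another peak of its window came within 1000 bp of the starts of Gatc and Triap1. Cox8b had no peak in its window, and its nearest peak lay 15476 bp away, while Cox8a had 1868 bp and a widest start peak of 1437 bp. Cox7a1 went the other way and had a start peak. Its peak of 1455 bp (chr7:30183378-30184832) covered the start, reached 793 bp upstream and 661 bp downstream, and touched no other protein-coding gene's start. Cox7a2 had 3472 bp and a start peak of 2084 bp. Among the 8 muscle markers, 0 had a start peak and 2 had a peak in the window.

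For the testis isoforms acetylation was absent or small. Cox7b2 had no peak nearer than 274360 bp, while its X-linked partner Cox7b had 4666 bp and a start peak of 1708 bp. Of the 4666 bp, 1383 bp lay inside Cox7b. Further peaks of its window came within 1000 bp of the starts of Magt1 and Atp7a. Cox8c had no peak nearer than 20404 bp. Cox6b2 had 1 peak of 167 bp, 875 bp downstream of its start, which was the narrowest start peak of all members, while Cox6b1 had 1586 bp and a start peak of 1372 bp. The cytochrome c genes, which are no members, had 0 bp at the testis gene Cyct and 4739 bp at the general gene Cycs.

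Of the others, Cox4i2, the lung isoform, had no peak nearer than 10663 bp, while Cox4i1 had 2700 bp in 1 peak. The Cox4i1 peak came within 1000 bp of the starts of Emc8 and Gm27021. Ndufa4l2, a relative of Ndufa4 known as a gene induced in low oxygen, had 2276 bp in its window but none within 1000 bp of either end. Inside it lay peaks of 891 and 133 bp. A peak of 1638 bp, 3749 bp outside it, came within 1000 bp of the start of Shmt2. Ndufa4 had 2628 bp in 1 peak.

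**Figure D4:**
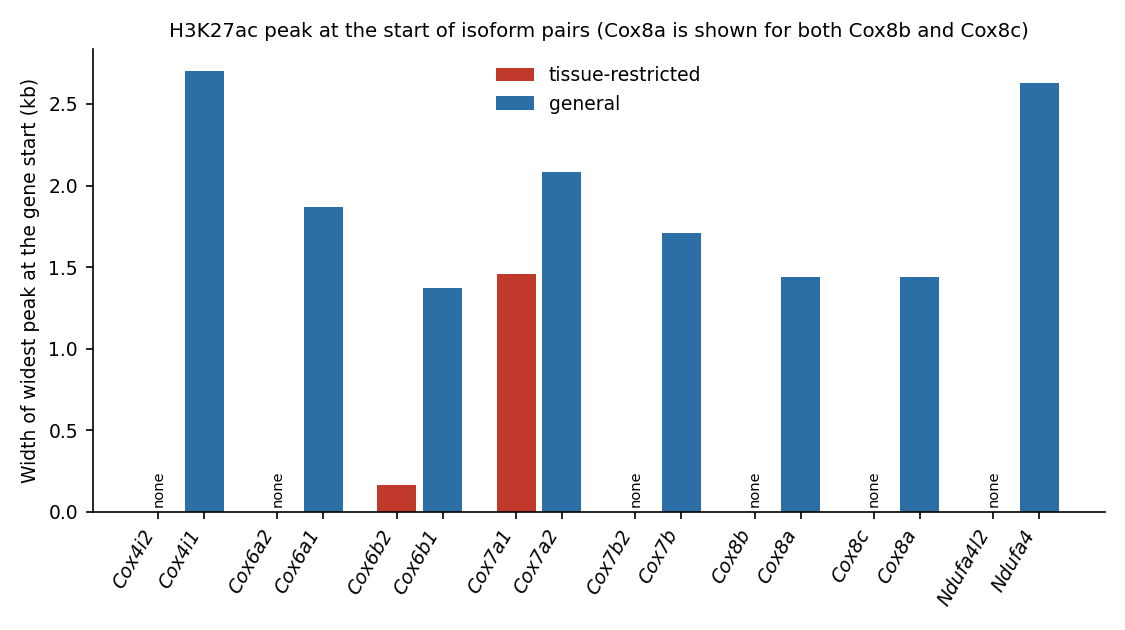
Width (vertical axis, kb) of the widest H3K27ac peak within 1 kb of the start for each tissue-restricted isoform gene and its general partner. Among restricted isoforms Cox7a1 (1455 bp) and Cox6b2 (167 bp) have one, and the general partners span 1372 to 2700 bp.

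The promoter sequences of the pairs are set side by side. The stretch from 150 bases before to 50 bases after the start is given for the 4 pairs in which both genes matched the RefSeq promoter table (GRCm38.p6), restricted isoform first. Capitals mark matches on either strand to GCGCNTGCG (the core of the NRF1 motif), CCGGAAG (the ETS core that GABP binds), AAGATGGCG (YY1), GGGCGG (SP), CCAAT and TGACGTCA (CRE). NRF1 and GABP are known as regulators of respiratory chain genes.
Cox6b2, chr7:4753045-4753244, minus strand: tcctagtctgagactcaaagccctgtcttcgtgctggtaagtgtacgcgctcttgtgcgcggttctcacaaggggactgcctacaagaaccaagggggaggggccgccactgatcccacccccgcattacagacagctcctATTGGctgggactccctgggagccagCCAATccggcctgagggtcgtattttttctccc
Cox6b1, chr7:30626065-30626264, minus strand: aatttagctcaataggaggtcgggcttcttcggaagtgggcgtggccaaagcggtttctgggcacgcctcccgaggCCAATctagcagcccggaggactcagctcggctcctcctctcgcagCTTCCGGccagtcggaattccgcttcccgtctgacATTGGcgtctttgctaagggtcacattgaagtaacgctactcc
Cox7a1, chr7:30184021-30184220, plus strand: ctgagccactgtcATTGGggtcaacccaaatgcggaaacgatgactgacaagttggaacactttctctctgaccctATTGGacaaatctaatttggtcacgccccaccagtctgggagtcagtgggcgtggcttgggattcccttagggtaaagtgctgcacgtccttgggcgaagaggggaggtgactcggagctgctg
Cox7a2, chr9:79759804-79760003, minus strand: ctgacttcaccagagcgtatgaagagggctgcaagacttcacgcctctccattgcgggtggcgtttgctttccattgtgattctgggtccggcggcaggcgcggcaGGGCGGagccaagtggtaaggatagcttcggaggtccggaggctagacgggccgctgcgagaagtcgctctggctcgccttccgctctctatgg
Cox7b2, chr5:71548156-71548355, minus strand: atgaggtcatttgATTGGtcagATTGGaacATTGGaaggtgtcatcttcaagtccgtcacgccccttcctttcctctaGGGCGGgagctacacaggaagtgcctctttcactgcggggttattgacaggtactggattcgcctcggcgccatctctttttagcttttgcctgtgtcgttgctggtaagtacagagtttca
Cox7b, chrX:106015550-106015749, plus strand: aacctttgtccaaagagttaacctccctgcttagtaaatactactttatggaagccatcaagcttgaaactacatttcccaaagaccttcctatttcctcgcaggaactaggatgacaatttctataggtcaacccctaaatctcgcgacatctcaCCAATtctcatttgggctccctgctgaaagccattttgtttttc
Cox8b, chr7:140900397-140900596, minus strand: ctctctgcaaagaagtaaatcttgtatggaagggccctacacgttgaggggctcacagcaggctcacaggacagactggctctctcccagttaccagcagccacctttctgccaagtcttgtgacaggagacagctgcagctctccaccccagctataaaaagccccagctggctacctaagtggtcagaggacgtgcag
Cox8a, chr19:7217567-7217766, minus strand: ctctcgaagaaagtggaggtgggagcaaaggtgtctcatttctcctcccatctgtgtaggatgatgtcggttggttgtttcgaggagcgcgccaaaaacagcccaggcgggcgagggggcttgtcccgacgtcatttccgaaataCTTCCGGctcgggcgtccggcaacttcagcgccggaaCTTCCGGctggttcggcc

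Positions are of the first base of a match, with the start as position 1. In these stretches the ETS core was found in Cox6b1 (28 bases before the start) and in Cox8a (5 bases before, and at position 33). It was absent from the general Cox7a2 and Cox7b and from the 4 restricted isoforms. Only 13.1% of all protein-coding genes had it in the 300-base promoter, and 4 genes in each class are too few to read. The other motifs were found in both classes or in neither. CCAAT was found in the restricted Cox6b2, Cox7a1 and Cox7b2 and in the general Cox6b1 and Cox7b. The SP core was found in Cox7b2 and Cox7a2, and NRF1, YY1 and CRE letters in no stretch. Cox8b had none of the 6 motifs. The CpG ratio (observed over expected CpG dinucleotides in the 300 bases of the table) was 0.432 in Cox6b2, 0.333 in Cox7a1, 0.564 in Cox7b2 and 0.115 in Cox8b. The general partners had 0.807 in Cox6b1, 0.833 in Cox7a2, 0.368 in Cox7b and 0.842 in Cox8a. Cox7a1 and Cox7b, both with a start peak, thus had ratios as low as those of isoforms without one.

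The gene copies Ndufb4b and Ndufb4c lacked acetylation while Ndufb4, an accessory subunit gene of complex I, had it. Ndufb4b had no peak nearer than 9667 bp and Ndufb4c none nearer than 58511 bp, while Ndufb4 had 1 peak of 1668 bp over its start. The annotated spans were 471 bp (chr19:25033108-25033578) and 485 bp (chr15:73809449-73809933) for the copies, against 6767 bp for Ndufb4. Reads from near-identical copies can be hard to place, and no source used here says how they were handled. The promoters of Ndufb4b and Ndufb4, shown to compare sequence upstream and downstream of the start, shared a run of 26 bases, gggagtcaagatgtcgggttccaagt.
Ndufb4b, chr19:25032958-25033157, plus strand: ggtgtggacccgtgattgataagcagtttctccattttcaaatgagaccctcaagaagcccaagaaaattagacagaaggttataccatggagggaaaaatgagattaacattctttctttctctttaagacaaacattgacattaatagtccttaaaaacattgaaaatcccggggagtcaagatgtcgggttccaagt
Ndufb4, chr16:37654319-37654518, minus strand: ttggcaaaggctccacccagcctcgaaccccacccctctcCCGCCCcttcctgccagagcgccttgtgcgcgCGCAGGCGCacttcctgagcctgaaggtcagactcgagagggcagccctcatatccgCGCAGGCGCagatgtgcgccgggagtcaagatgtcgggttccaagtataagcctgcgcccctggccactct

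The shared run covered positions 25 to 50 in Ndufb4b and positions -1 to 25 in Ndufb4. The Ndufb4b promoter sequence ends at position 50, so the shared stretch may go on beyond it. Upstream, Ndufb4 had NRF1 cores 78 and 21 bases before the start, and Ndufb4b had none of the 6 motifs. No promoter of Ndufb4c is shown.

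Across the 81 members with a promoter sequence, NRF1, ETS and YY1 letters were more common than in all promoters. The NRF1 core was found in 27 members (33.3%), against 9.78% of 17274 protein-coding genes, the ETS core in 19 (23.5%), against 13.1%, and the YY1 motif in 8 (9.88%), against 2.15%. At least 1 of these 3 was found in 44 members (54.3%), against 22.1%. The NRF1 share was 26.1% in mitochondrial ribosomal protein genes and 16.3% in proteasome genes, and the ETS share was higher in both, 37.7% and 37.2%. In the same 2 sets the YY1 share was 11.6% and 4.65%. At least 1 of the 3 motifs was found in 62.3% and 53.5% of them. The SP core (46.9% against 49.8%) and CCAAT (44.4% against 42.7%) had shares close to those of all promoters. CRE was found in 4 members (4.94%, against 2.58%), too few to read. These are shares of letters in a window and show no binding.

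**Figure D5:**
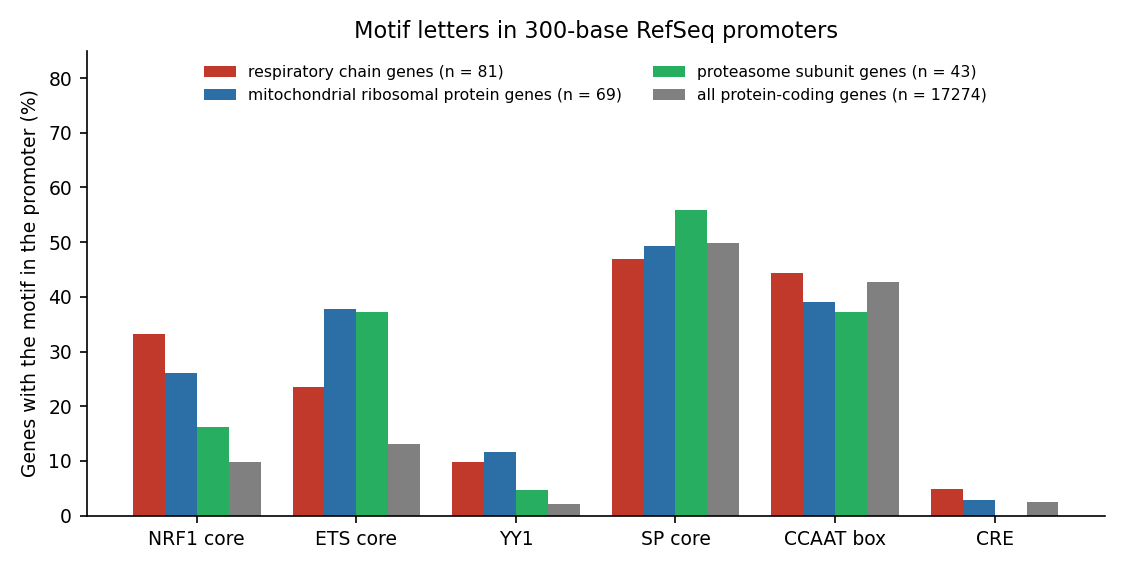
Percent of genes (vertical axis) with each motif on either strand in 300-base RefSeq promoters, for respiratory chain genes, mitochondrial ribosomal protein genes, proteasome genes and all protein-coding genes. The NRF1 core is found in 33.3% of the respiratory chain genes and 9.78% of all genes, and SP and CCAAT differ little.

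General members that carry such letters are shown from complexes II to V, with capitals as above. Cox6a1 and Sdhd hold NRF1 and ETS cores, Uqcrc1 holds NRF1 cores after its start beneath a narrow peak, and Atp5b, among the most acetylated members, holds SP and CCAAT letters only.
Cox6a1, chr5:115348909-115349108, minus strand: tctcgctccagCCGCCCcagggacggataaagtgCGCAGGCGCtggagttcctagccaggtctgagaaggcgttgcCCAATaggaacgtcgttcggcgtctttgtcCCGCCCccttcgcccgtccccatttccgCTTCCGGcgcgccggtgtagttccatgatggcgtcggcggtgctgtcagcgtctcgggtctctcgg
Sdhd, chr9:50603800-50603999, minus strand: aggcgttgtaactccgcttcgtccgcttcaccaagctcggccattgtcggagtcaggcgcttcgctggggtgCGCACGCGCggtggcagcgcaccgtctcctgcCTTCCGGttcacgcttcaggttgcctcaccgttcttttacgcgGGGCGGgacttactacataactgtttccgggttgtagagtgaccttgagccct
Uqcrc1, chr9:108936498-108936697, plus strand: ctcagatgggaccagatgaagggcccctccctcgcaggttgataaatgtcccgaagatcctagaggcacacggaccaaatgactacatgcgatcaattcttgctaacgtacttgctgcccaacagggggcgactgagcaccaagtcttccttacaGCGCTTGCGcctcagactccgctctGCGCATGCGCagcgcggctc
Atp5b, chr10:128083157-128083356, plus strand: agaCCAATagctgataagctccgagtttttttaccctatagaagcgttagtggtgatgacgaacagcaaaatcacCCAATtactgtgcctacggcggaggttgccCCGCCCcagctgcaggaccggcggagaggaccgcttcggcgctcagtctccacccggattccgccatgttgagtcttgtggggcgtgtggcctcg

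Among the members start peaks were found with and without these letters. All 44 members with an NRF1, ETS or YY1 match had a start peak, and so did 34 of the 37 without. Over all protein-coding genes the share with a start peak was 45.1% with none of the 3 and 89.1% with 1 of them. CpG content gave a similar picture. A CpG ratio of at least 0.6 was found in 65 of the 81 members (80.2%), against 51.5% of all genes, and all 65 had a start peak, against 84.8% of all genes with such a ratio. Of the 16 members below 0.6, 13 had a start peak (81.2%), against 23.4% of all genes below it. The 3 members without one were Cox7b2, Cox8b and Ndufb4b. Other sets were much alike. The ratio was at least 0.6 in 92.8% of mitochondrial ribosomal protein, 72.1% of proteasome and 82.1% of cytosolic ribosomal protein genes. Of these, 100%, 100% and 95.3% had a start peak. Below 0.6 the shares with a start peak were 100% (5 of 5), 83.3% (10 of 12) and 50% (7 of 14).

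Many members shared their start peak with another gene. An opposite-strand start of another protein-coding gene lay within 1000 bp upstream in 22 of the 81 members with a strand (27.2%), against 8.59% of 17274 genes. All 22 had a start peak. Its median reach upstream was 1085.5 bp, against 681 bp in members with no such neighbour, while the reach downstream was 1082 and 1081 bp. Over the 90 members with a start peak, the peak also touched another gene's start window in 36 (40%), against 22% of genes with a start peak, and the acetylation cannot be assigned to one of the genes. Shared peaks had a median width of 2169 bp and the other 54 a median of 1670 bp. The widest were those of Atp5d with Cbarp, Ndufb1 with Cpsf2 (5172 bp), Ndufaf3 with Dalrd3 and Uqcrh with Lrrc41.

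A few of these neighbours are known to serve the mitochondrion or its transcription themselves. The examples were picked by function from the neighbours of the 22 members, and how common such neighbours are was not counted. Atp5j, a stator subunit gene, lay 148 bp from the start of Gabpa, which encodes the DNA-binding subunit of GABP, under a peak of 3431 bp. Ndufb5 lay 308 bp from the mitochondrial ribosomal protein gene Mrpl47 under a peak of 1681 bp, and Sdhd lay 52 bp from Timm8b, a gene of mitochondrial protein import, under a peak of 2165 bp. The Sdhd peak also came within 1000 bp of the start of Nkapd1. A neighbour of another kind was the cytosolic ribosomal protein gene Rps28, 10 bp from Ndufa7 under a peak of 2435 bp.

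Most other genes of the pathway also had a start peak. All 34 assembly factor genes outside the rule, such as the heme synthesis gene Cox10 and the copper chaperone genes Sco1 and Sco2, had a start peak, with a median acetylated length of 2517.5 bp. Of 12 regulators 11 did, with a median acetylated length of 4421 bp, longer than the 2276 bp of the members. This length is counted over the whole gene and its flanks. The regulators were longer genes, with a median of 28048.5 bp against 7279 bp in the members. Their median start peak width was 2651 bp, and no difference was tested. Nrf1, which encodes NRF1, is a gene of 105474 bp and had 16218 acetylated bp with a start peak of 3146 bp. Tfam, the mitochondrial DNA-packaging factor gene, had 3116 bp, and Ppargc1b had 2859 bp with a start peak of 2471 bp. Ppargc1a, which encodes the coactivator PGC-1α of muscle, liver and brown fat, spans 661605 bp. It had 3322 bp in its window and no start peak. Of 4 genes for enzymes that feed electrons to ubiquinone, 3 had a start peak, and Sqor, with 901 bp, had none.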

How the data were processed

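H3K27ac ChIP-seq and input libraries were made from cultured Th17 cells. The authors deposited 1 list of peak positions for them. Per the submitters' processing notes, the tools include MACS2 2.2.6, Bowtie2 2.3.4.1, deepTools and SAMtools 1.9, and the build is GRCm38 (mm10). The input served the peak call, per the series' design text. No source used here gives thresholds, filters, the treatment of multiply mapped reads or any pooling. Peak names run up to number 71449, more than the 56285 listed, and carry no replicate. Starts were read as counted from 0, and 56284 peaks on chromosomes 1 to 19 and X were used.

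Genes came from RefSeq (GRCm38.p6), and all 99 members are in its gene table. Strand, starts and 300-base promoters came from its promoter table, which matched 81 members. Overlap means at least 1 bp. A start peak lies within 1000 bp of a listed start, or of either gene end where no strand is given. No statistical test was run, since the list has no replicates. The counting code was tested on simulated peaks. Motifs were searched on both strands, and a palindrome counts once per match.

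The members and lists were chosen with earlier results of these data known. Genes named by rule are the isoform pairs, members with no start peak, the 6 longest acetylated, the 4 widest and 4 narrowest start peaks, the Sdh genes and the 4 widest shared peaks. One member that this rule names is not reported here. Other genes named, the core subunit split, the CpG ratio and the printed promoters were chosen after values were seen. Python 3.11.15, numpy 2.4.6 and pandas 2.3.3 were used.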

Additional observations from a re-analysis of the deposited data

How the results depend on the processing

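Of 56 values recomputed under alternatives, 50 stayed within the exact 95% binomial interval of the share as reported, or within 1.5 times the median as reported. The interval served as a yardstick only, since genes of 1 list are not replicates. For the 8 restricted and 7 general isoforms it is so wide that their shares could hardly leave it. The 6 others follow. The members' median acetylated length was 1172 bp with no flank and 3919 bp with flanks of 20000 bp, against 704 and 2399 bp over all protein-coding genes. The general isoforms' median was 1351 bp with no flank and 5147 bp with 20000 bp, and the restricted isoforms' median was 2266 bp with 20000 bp, where the window holds more neighbouring genes. The members' share with a start peak was 96.3% among genes with strand only (chosen after seeing the data), against 55% of all such genes. Of 8 restricted isoforms 1 had a start peak with windows of 500 bp or with peaks of at least 500 bp, which leave out Cox6b2, and 3 did with windows of 2500 bp, which add Ndufa4l2. Among genes with strand only, 2 of 4 restricted isoforms did (50%), against 55% of all such genes. No paired analysis was possible because the list holds no value per library. For the same reason no replicate was left out, and depth and reproducibility of a peak cannot be judged.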
